A study of Mus musculus with 22 samples.

Results

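The genes described here were 36 genes of sterol and fatty acid synthesis, out of 29367 genes in the count table. These genes were measured in RNA precipitated with tagged ribosomes from the mouse optic nerve, where the tag was aimed at astrocytes. They were listed by their place in the pathway, but earlier results of these data were known when the list was made. There were 8 genes of the mevalonate steps, 12 of squalene and the later sterol steps and 6 of SREBP control and sterol transport. A further 4 were of fatty acid synthesis and 6 of desaturation and elongation. All 36 had enough counts to be tested in each of the 5 comparisons. The study asked how astrocytes of the optic nerve respond to a raised intraocular pressure, and it compared the unmyelinated optic nerve head (ONH) with the most proximal myelinated stretch of the nerve behind it, the optic nerve proper (ONP). Ribotag mice (B6J.129(Cg)-Rpl22tm1.1Psam/SjJ) had been crossed to a GFAP-Cre line, and every animal used was Rpl22 HA/HA and Cre+, although the labels give the genotype as WT. Mice of 3 to 4 months, on a C57Bl/6 background, received microbeads in 1 eye, which block the outflow of fluid and raise the pressure. The 4 groups were ONP at 7 days (4 libraries), ONP at 30 days (7 libraries), ONH at 7 days (4 libraries) and ONH at 30 days (7 libraries). A library pooled 4 animals, 2 of each sex. Every group was injected, so a time effect here is a difference between 30 and 7 days and not a difference from uninjected nerve, and uninjected samples were not analysed here. The Cre transgene is constitutive and driven by a mouse Gfap promoter. Any cell that used this promoter at some stage therefore carries the HA tag on its ribosomes. The paper reports that after microbeads HA staining overlapped an astrocyte marker, and not markers of microglia or oligodendrocytes. By RT-qPCR, it found the precipitated RNA enriched for astrocyte markers only. Both results after injection were shown for the nerve head. Enrichment over input RNA was not tested here.

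Cells build cholesterol from acetyl-CoA through mevalonate, isoprenoids and squalene, and the last steps turn lanosterol into cholesterol. When membrane sterol is low, SCAP carries the SREBP proteins from the endoplasmic reticulum to the Golgi, where they are cut and released as transcription factors for most of these genes, and INSIG proteins hold SCAP back when sterol is plentiful. In the nervous system little cholesterol crosses from the blood: astrocytes supply sterol to neurons, and oligodendrocytes make large amounts of cholesterol and fatty acids for myelin. The ONH holds no compact myelin and the ONP does.

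The promoters of members whose levels carry the results below are shown first, because many of these genes are known targets of the same factors. Of the 36 members, 29 had an entry among the RefSeq promoters (GRCm38.p6), each a window of 250 bases before to 50 bases after a gene start. A CCAAT box, the letters bound by NF-Y, a partner of SREBP, was searched on both strands, and 24 of the 29 members (82.8%) held one, beside 11096 of 27025 genes (41.1%) in windows of the same length. It was present in 10 of 10 matched members of the squalene and sterol steps and in 1 of 3 of desaturation and elongation. More than one CCAAT stood in a window of 14 of the 29 members (48.3%), against 13.3% of all genes. The sterol regulatory element TCACNCCAC, searched on both strands, was found in 1 member, Hmgcs1 (3.45%, against 1.44% of all genes), where it began 137 bases before the start. Only these letters in these windows were searched, so other forms of the element, or elements outside the windows, would be missed. Fdps, Fdft1, Sqle, Stard4, Scd1, Scd2 and Fads1 had no entry and were not searched. The lines below give the 150 bases directly before the start for 5 members, read 5′ to 3′ on the strand of the gene. Capitals mark TCACNCCAC and CCAAT, the latter written ATTGG where it lies on the opposite strand. In Fasn a CCAAT and an ATTGG overlap by 2 bases.
Hmgcs1 (chr13:119690201-119690350, + strand): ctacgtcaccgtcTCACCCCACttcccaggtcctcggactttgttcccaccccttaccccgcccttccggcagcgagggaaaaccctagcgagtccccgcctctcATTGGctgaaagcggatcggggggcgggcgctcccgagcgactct
Mvd (chr8:122443423-122443572, - strand): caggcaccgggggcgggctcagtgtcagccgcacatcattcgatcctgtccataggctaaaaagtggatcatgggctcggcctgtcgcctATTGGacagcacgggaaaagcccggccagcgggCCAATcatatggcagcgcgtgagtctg
Cyp51 (chr5:4104698-4104847, - strand): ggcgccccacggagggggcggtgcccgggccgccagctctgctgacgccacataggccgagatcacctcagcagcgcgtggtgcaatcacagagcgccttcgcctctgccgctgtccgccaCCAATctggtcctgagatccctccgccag
Fasn (chr11:120824548-120824697, - strand): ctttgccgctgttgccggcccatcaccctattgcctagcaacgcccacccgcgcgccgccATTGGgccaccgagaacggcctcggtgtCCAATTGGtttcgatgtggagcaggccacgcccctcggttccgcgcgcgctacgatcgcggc
Insig2 (chr1:121332590-121332739, - strand): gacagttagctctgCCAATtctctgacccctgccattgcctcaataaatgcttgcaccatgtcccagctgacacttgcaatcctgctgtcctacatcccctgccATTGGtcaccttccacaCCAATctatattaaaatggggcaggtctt
Hmgcs1, Mvd, Cyp51 and Fasn were lower at 30 than at 7 days in the ONP, whereas Insig2 was the single member higher in the ONH than in the ONP. All 5 windows shown hold a CCAAT. Insig2 had 3 windows, and the one shown is that with the most motifs, so these lines cannot compare it with the others. No CCAAT was found for Acat2, Scap, Acaca and Elovl6, which were also lower over time in the ONP.

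Libraries held 16292489 to 33307092 counts. Levels are given as CPM, counts scaled to the size of each library, after TMM scaling over the 22 libraries. The 9 astrocyte markers (such as Gfap, Aldh1l1 and Gja1) were all detected in every library, with summed levels between 14305 and 31897 CPM. The 10 oligodendrocyte markers (such as Mog, Mag, Mobp, Cnp and Cldn11) were also all detected in every library, and they were far from 0. Their sum was 43037 to 60768 CPM in the ONP at 7 days, 14498 to 43896 CPM in the ONP at 30 days, 8844.7 to 16304 CPM in the ONH at 7 days and 7369.7 to 20335 CPM in the ONH at 30 days. The oligodendrocyte markers thus follow the same order of groups as most members below. In the ONP at 7 days their sum lay above the astrocyte marker sum (14458 to 20838 CPM). At 30 days the ONP medians were 27132 CPM for oligodendrocyte markers and 27218 CPM for astrocyte markers. The lists hold different genes, so these sums do not give shares of cells. Fewer cells of a type, less RNA per cell and a smaller part of that RNA in the precipitate cannot be told apart in such samples. Microglial markers were highest in the libraries numbered 7 at 30 days (2785 CPM in the ONH and 2635.4 CPM in the ONP), and photoreceptor markers reached 5149.9 CPM in library 6 of the ONH at 7 days. Adipocyte markers, which bear on the fatty acid genes, stayed at or below 1.5331 CPM in the ONP and reached 72.224 CPM in 1 ONH library.

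For most members the mean level was highest in the ONP at 7 days. The exceptions were Pmvk, Ggps1, Srebf1, Insig2, Fads1 and Fads2. Summed over desaturation and elongation, the ONP overlapped between 7 days (6396.4 to 6919.3 CPM) and 30 days (4271.0 to 6746.3 CPM). Summed over the 20 enzymes of the mevalonate and sterol steps, the level was 5074.1 to 5787.9 CPM in the ONP at 7 days, 2178.1 to 3694.5 CPM in the ONP at 30 days, 1289.9 to 1958.4 CPM in the ONH at 7 days and 1407.1 to 1881.7 CPM in the ONH at 30 days. The ONP libraries of both days lay above all 11 ONH libraries, and the ONP libraries of 7 days lay above all of those of 30 days. The ONH libraries of both days overlapped. Per exonic length, Scd2 had the highest level of the 36 in each group, 833 ± 68.8 RPKM (SD) in the ONP at 7 days and 268 ± 36.5 RPKM in the ONH at 7 days. The lowest was Acaca in each group, at 3.25 ± 0.36 RPKM and 1.33 ± 0.68 RPKM in the same order.

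**Figure D1:**
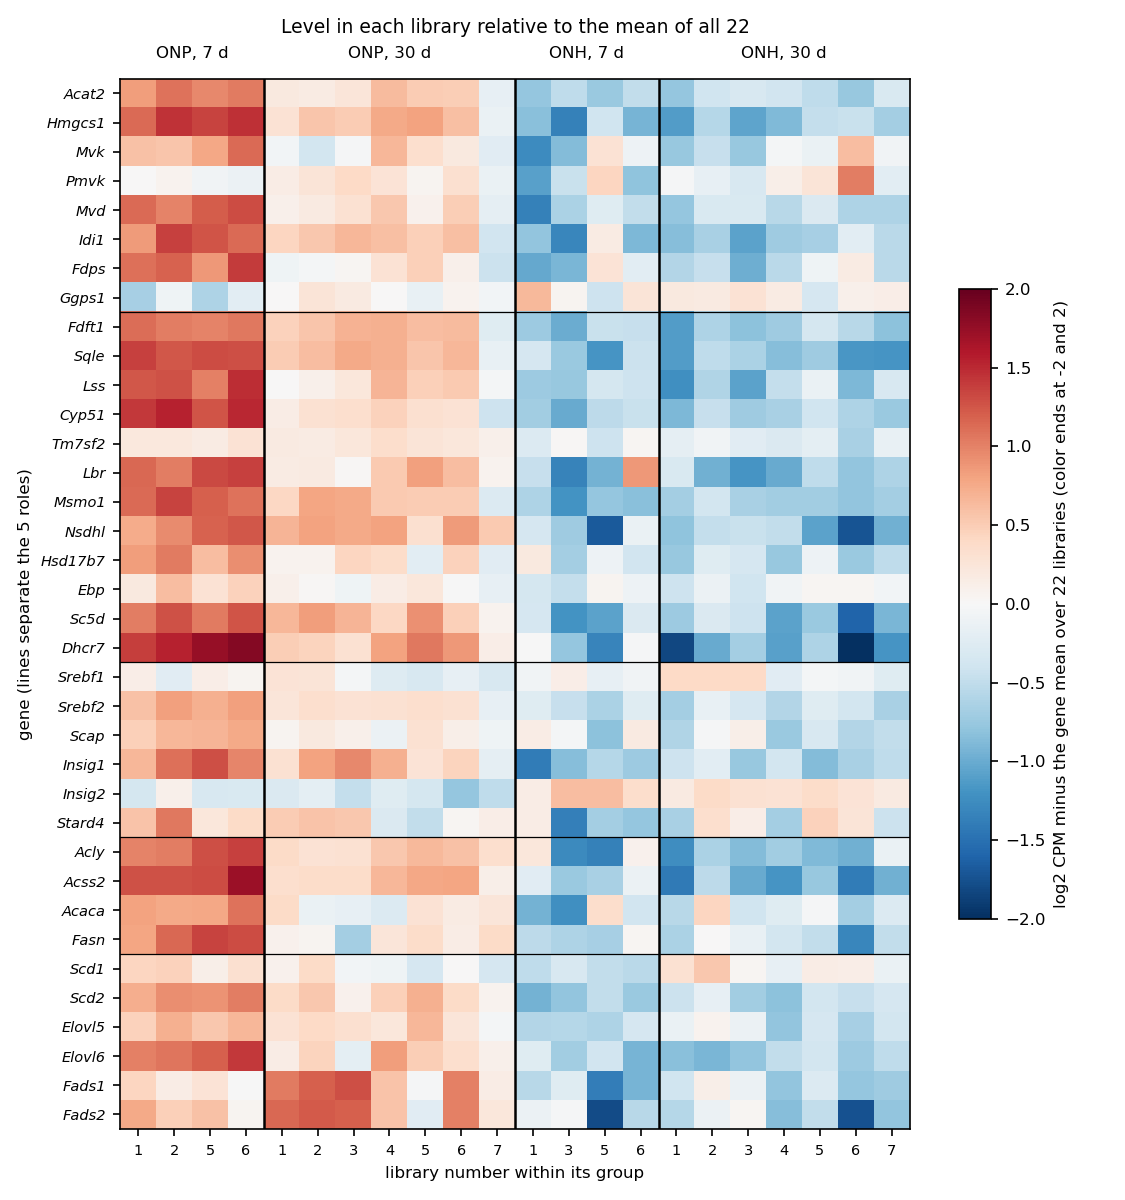
Level of each of the 36 genes in each of the 22 libraries, as log2 CPM minus the mean of that gene over all libraries; columns are libraries, numbered within their group, rows are genes, and lines separate the groups and the 5 roles. Most rows are red in the 4 ONP libraries of 7 days, paler in the ONP at 30 days and blue in the ONH, while Insig2 is higher in the ONH than in the ONP and Srebf1 shows no order. Pmvk, Ggps1, Fads1 and Fads2 do not follow the main order either.

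In the ONP, 24 of the 36 members (66.7%) were lower at 30 than at 7 days at an adjusted p under 0.05, and 0 were higher. Of all 15491 genes tested, 17% passed, 9.21% lower and 7.82% higher. The median log2 fold change (log2FC) of the members was -0.65, beside -0.01 for all genes. In 22 members every library of 30 days lay below every library of 7 days, a pattern seen in 5.79% of all genes. The oligodendrocyte markers moved the same way: 8 of the 10 were lower at 30 days and the log2FC of the 10 ran from -1.08 to -0.54. Some markers of other cell types were lower as well: 2 of 5 endothelial (median of the 5 -1.48), 2 of 5 fibroblast and mural (-0.65), 1 of 4 photoreceptor (-2.19) and 1 of 4 surface epithelium (-2.84). Of 5 neuron markers 1 was lower (median -0.37, from -1.94 to 1.74). Of 5 oligodendrocyte precursor markers 0 passed (median -0.18, from -0.63 to 0.35). Of 7 microglial markers 0 passed (median -0.51), and of 9 astrocyte markers 1 was higher (median 0.25). The part of these cell types in the members' difference was not tested. The mean log2 level of the 10 oligodendrocyte markers was also added to the fit as a covariate. With it 2 members passed, Mvd and Cyp51, along with 432 genes in place of 2638, and the median of the members was -0.51. The marker level itself differs between the groups, so the covariate removes part of the time contrast too, and how much of the members' difference belongs to oligodendrocyte RNA was not tested. Per 1000 CPM of oligodendrocyte markers, the sterol enzymes summed to 95.25 to 117.9 CPM (median 106.3) in the ONP at 7 days and 80.28 to 237.1 CPM (median 120.7) at 30 days. In the ONH this ratio was 106.2 to 148.1 (median 145.3) at 7 days and 80.23 to 203.6 (median 152.8) at 30 days. The 4 groups overlapped on it. Its spread also reflects the marker sum, which ran from 14498 to 43896 CPM in the ONP at 30 days.

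**Figure D2:**
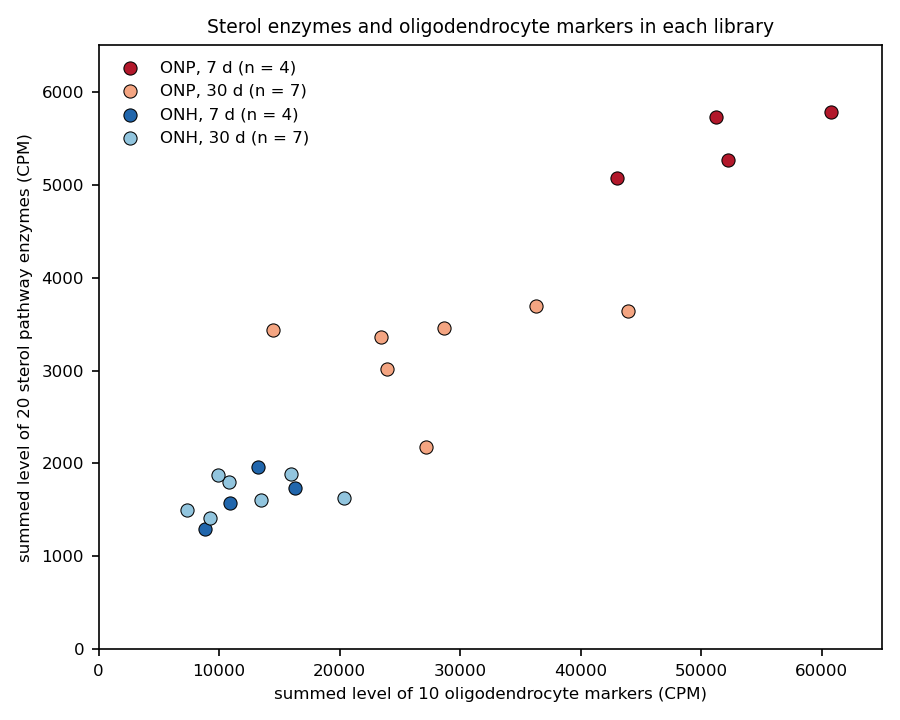
Summed level of the 20 enzymes of the mevalonate and sterol steps (vertical axis, CPM) against the summed level of 10 oligodendrocyte markers (horizontal axis, CPM), 1 point per library, colored by group. The 4 ONP libraries of 7 days are highest in sterol enzymes and hold 43037 CPM of markers or more, as does replicate 5 of the ONP at 30 days (43896 CPM). The 11 ONH libraries lie together at the lower left, at or below 1958.4 CPM of sterol enzymes, and the ONP libraries of 30 days lie between them over a wide range of marker levels.

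In the ONH, 0 members passed between 30 and 7 days, where 0 of 15668 genes tested passed (0%). At an unadjusted p under 0.05 there were 3 members, beside 13.9% of all genes. The median log2FC of the members was -0.05, with 15 above and 21 below 0. DESeq2 called 446 genes and 1 member, Scd1, in this comparison. The 10 oligodendrocyte markers did not pass either, with a median log2FC of 0.01. Medians of other markers were -4.81 for surface epithelium, -1.97 for photoreceptor, -1.63 for endothelial and -1.50 for fibroblast and mural. They were -0.83 for pigment cell, -0.59 for neuron, -0.23 for microglial and 0.09 for astrocyte markers. As no gene passed, the lack of calls does not show that these levels were stable.

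The difference between the regions in the 30 vs 7 day change was tested directly over all 22 libraries. It passed for 3 members, Mvd, Cyp51 and Scd1, each with a more negative change in the ONP, beside 0.543% of 16748 genes (0.394% in this direction). For 32 of the 36 the change was more negative in the ONP than in the ONH, the exceptions being Ggps1, Tm7sf2, Fads1 and Fads2. The median difference was -0.49 on the log2 scale, and 22 members had an unadjusted p under 0.05, beside 12.6% of all genes. For the other 33 members a regional difference in the change was not shown by this test. The call on Mvd was lost when any of 16 libraries was left out and that on Scd1 when any of 11 was, whereas Cyp51 kept its call without any single library. With the marker covariate, Cyp51 and Scd1 passed. The oligodendrocyte markers differed the same way, from -1.60 to -0.56, and 0 of 10 passed.

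**Figure D3:**
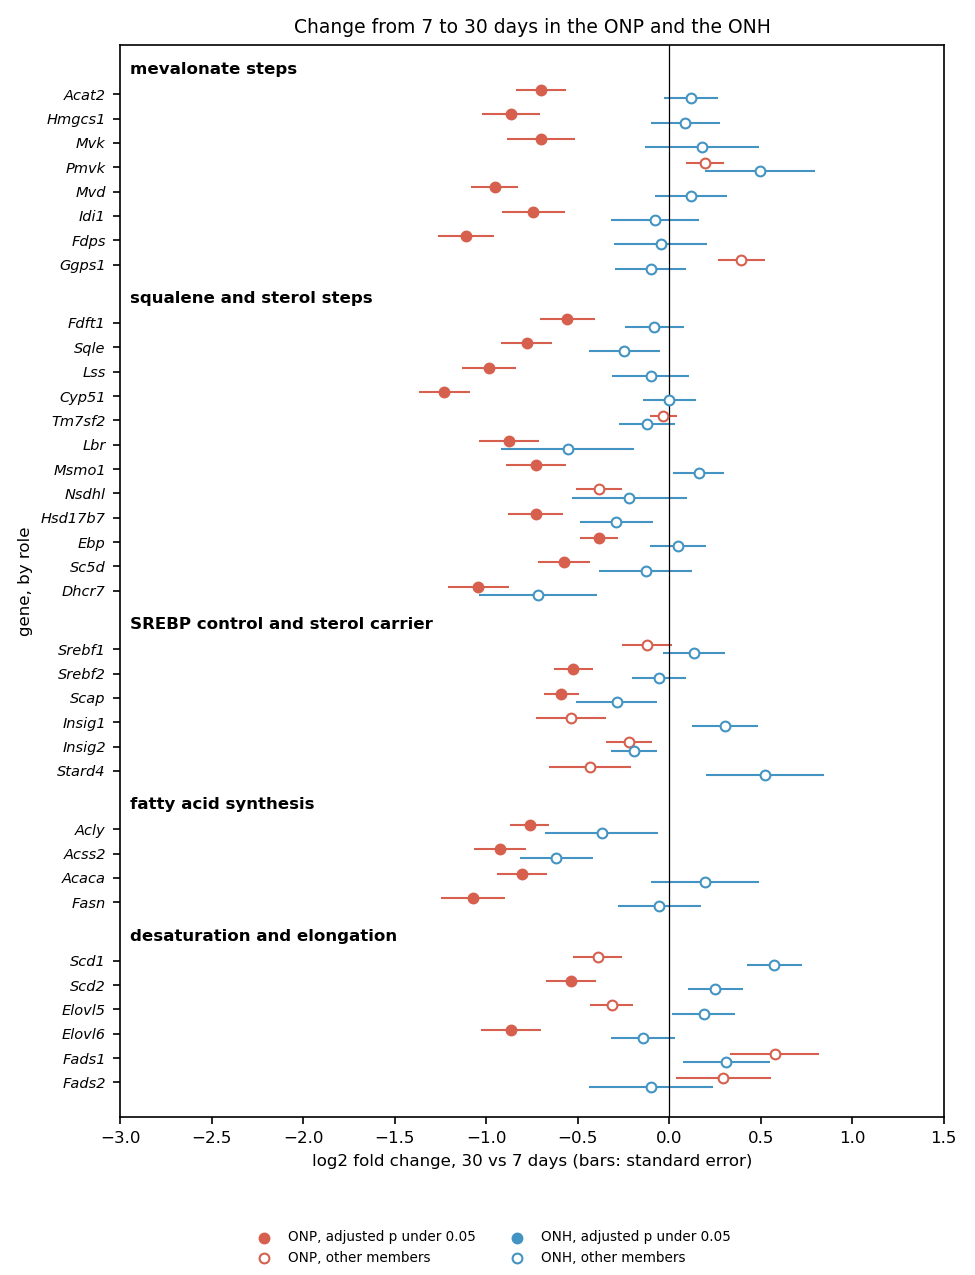
Log2 fold change from 7 to 30 days of each member in the ONP (red) and the ONH (blue), with standard errors as bars and genes grouped by role; filled points have an adjusted p under 0.05 (edgeR). The filled points are 24 ONP values, all below 0, and no ONH value is filled.

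The ONH was lower than the ONP at both days. At 7 days 27 members were lower in the ONH and 1 was higher, together 77.8%, where 13.2% of 14752 genes passed (6.81% lower, 6.34% higher). The median log2FC was -1.53. The libraries did not overlap in 32 members lower in the ONH, and 11.8% of all genes had that pattern. At 30 days there were again 27 lower and 1 higher, with a median of -0.82, where 41.8% of 15133 genes passed (20% lower, 21.8% higher). Here 17 members lower in the ONH did not overlap, against 7.08% of all genes. A total of 24 members were lower in the ONH at both days, as were 5.45% of the 14447 genes tested at both. The 10 oligodendrocyte markers were lower in the ONH too, all 10 at 7 days (log2FC from -2.87 to -1.42) and 8 at 30 days (-1.98 to -0.34), and so were 3 and 4 of 5 precursor markers. With the oligodendrocyte covariate, 1 member passed at 7 days (Fads1), where the marker sums of the regions do not overlap, and 23 passed at 30 days, 22 of them lower in the ONH. Other cell types differed in both directions. Microglial markers had medians of -1.11 at 7 days (0 of 7 passed) and -0.91 at 30 days (1 of 7 lower). Of 9 astrocyte markers 1 was lower at 7 days, and 3 were lower and 1 higher at 30 days. Photoreceptor and pigment cell markers were higher in the ONH at both days, 5 of 5 each, with medians of 5.31 and 6.23 at 7 days and 5.14 and 5.50 at 30 days, as were 3 of 5 neuron markers at 7 days and 1 of 5 at 30 days. Their part in the members' values was not tested.

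**Figure D4:**
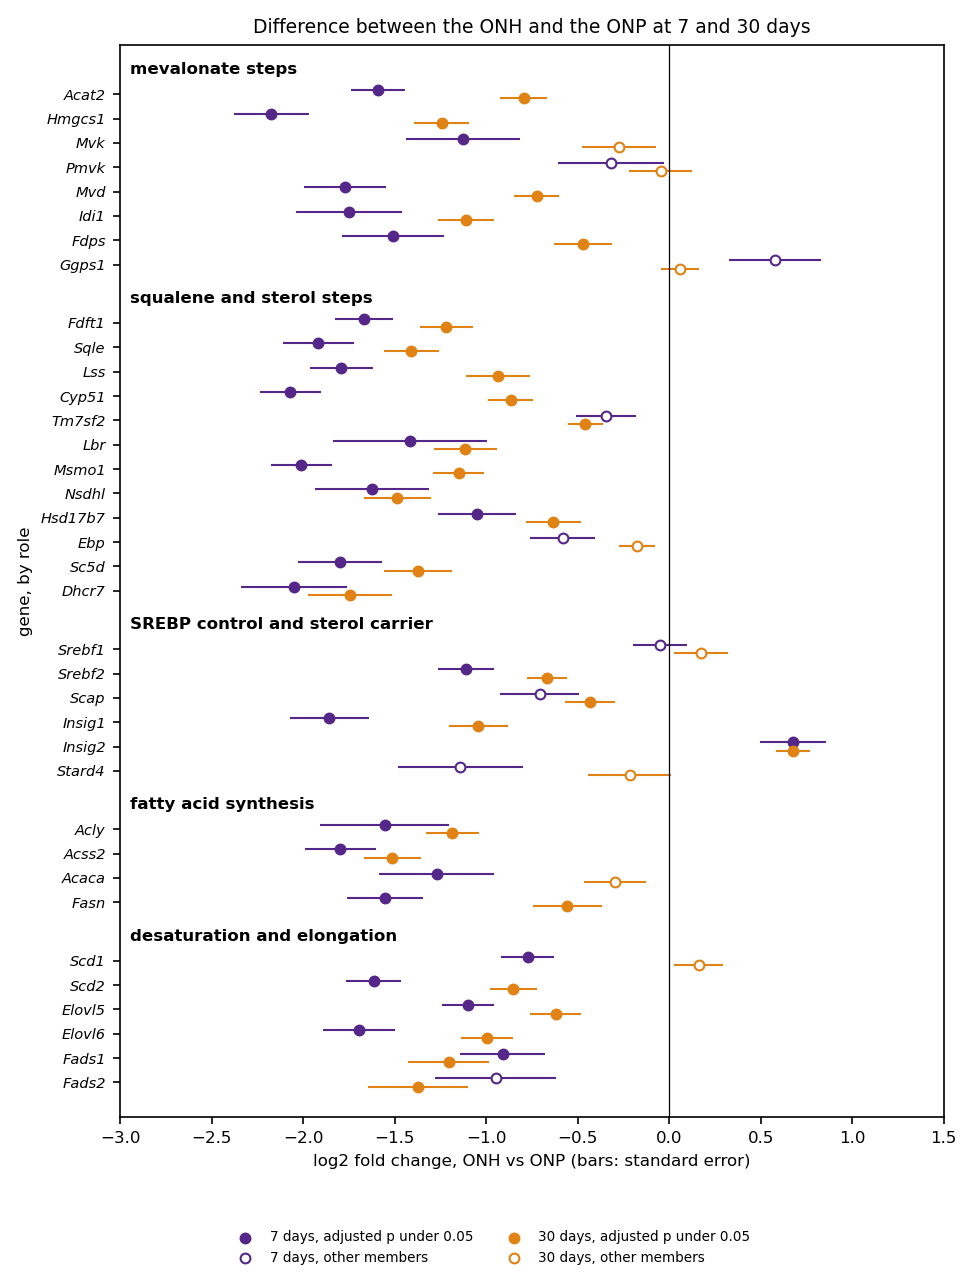
Log2 fold change of the ONH against the ONP at 7 days (purple) and 30 days (orange) for each member, with standard errors as bars; filled points have an adjusted p under 0.05 (edgeR). Most points lie left of 0, and the 7 day value is the more negative in 32 of the 36 members, the exceptions being Ggps1, Tm7sf2, Fads1 and Fads2. Insig2 and Ggps1 lie right of 0 at both days.

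The mevalonate steps turn acetyl-CoA into the isoprenoid units of sterols. In the ONP 6 of the 8 genes fell between 7 and 30 days, and the median log2FC of the 8 was -0.72. Hmgcs1, which makes HMG-CoA, had the highest level of them per length. It measured 1327, 1642, 1546 and 1664 CPM in the 4 ONP libraries of 7 days and 552 to 1061 CPM (median 888) at 30 days. In the ONH it measured 340.2, 237, 458 and 318 CPM at 7 days and 279 to 445 CPM (median 378) at 30 days. The ONP groups did not overlap, and both lay above every ONH library. Its log2FC was -0.87 ± 0.16 (SE) over time in the ONP (adjusted p = 0.00454), -2.17 ± 0.21 between ONH and ONP at 7 days (adjusted p = 0.000224) and -1.24 ± 0.15 at 30 days (adjusted p = 1.59e-05).

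Acat2, the cytosolic thiolase that joins acetyl-CoA units, measured 182, 216, 197 and 209 CPM in the ONP at 7 days and 90.2 to 157 CPM (median 120.0) at 30 days. The ONH libraries held 59.5, 71.1, 60.5 and 71.9 CPM at 7 days and 59.1 to 81.8 CPM at 30 days. The same 3 tiers appeared, with a log2FC of -0.70 over time in the ONP and -1.59 and -0.80 between the regions at 7 and 30 days. Mvd, which decarboxylates mevalonate diphosphate, measured 119.6, 109, 127 and 135 CPM in the ONP at 7 days and 48.5 to 79.9 CPM (median 61.9) at 30 days. The 4 ONH libraries of 7 days held 21.5, 35.3, 46.2 and 38.9 CPM, and those of 30 days held 32.0 to 44.8 CPM (median 37.3). Mvd fell in the ONP (log2FC = -0.95 ± 0.13, adjusted p = 0.00106), its value over time in the ONH was 0.12 ± 0.20, and the difference of both was -1.07 ± 0.23 (adjusted p = 0.0388).

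Fdps makes farnesyl diphosphate, the branch point of sterols and other isoprenoids. It measured 461, 487, 392 and 564 CPM in the ONP at 7 days and 159.7 to 297 CPM (median 219) at 30 days, so the groups did not overlap (log2FC = -1.11 ± 0.15, adjusted p = 0.00115). The ONH values were 105, 114, 258 and 184 CPM at 7 days and 109 to 239 CPM (median 147) at 30 days, which overlap the ONP at 30 days, and the regional difference was -0.47 ± 0.16 at that time (adjusted p = 0.0253). That call was lost without ONH replicate 3 or ONP replicate 5. Idi1, the isopentenyl isomerase, was lower over time in the ONP (-0.74) and lower in the ONH at both days (-1.75 and -1.11). Mvk, mevalonate kinase, was lower over time in the ONP (-0.70) and lower in the ONH at 7 days (-1.13, adjusted p = 0.0378), a call lost when any of 6 libraries was left out.

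Pmvk and Ggps1 departed from the other mevalonate genes. Pmvk, phosphomevalonate kinase, had a log2FC of 0.19 over time in the ONP and -0.05 and -0.32 between the regions, and passed in none of the comparisons. Ggps1 makes geranylgeranyl diphosphate, which leaves the sterol branch for protein prenylation. Its log2FC was 0.39 ± 0.13 over time in the ONP (adjusted p = 0.054), 0.58 between the regions at 7 days (adjusted p = 0.155) and 0.06 at 30 days, and it passed in none either.

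Squalene synthesis and the steps from squalene to cholesterol held 12 genes, of which 10 were lower over time in the ONP (median -0.73), 10 were lower in the ONH at 7 days (median -1.73) and 11 at 30 days (median -1.13). Cyp51, the lanosterol demethylase, had the smallest p of the 36 in the ONP over time. It measured 434, 473, 389 and 466 CPM at 7 days and 123 to 224 CPM (median 202) at 30 days. The fall of 57.4% was the largest of the 36 in the ONP (log2FC = -1.23 ± 0.14, adjusted p = 0.000451). In the ONH it measured 101, 81.0, 113 and 119 CPM at 7 days and 88.0 to 123 CPM (median 104) at 30 days, with a log2FC of 0.00 ± 0.15. The difference in the change between the regions was -1.23 ± 0.20 (adjusted p = 0.00595). Between the regions Cyp51 was lower in the ONH by -2.07 ± 0.17 at 7 days (adjusted p = 0.000211) and -0.87 ± 0.12 at 30 days (adjusted p = 6.56e-05).

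**Figure D5:**
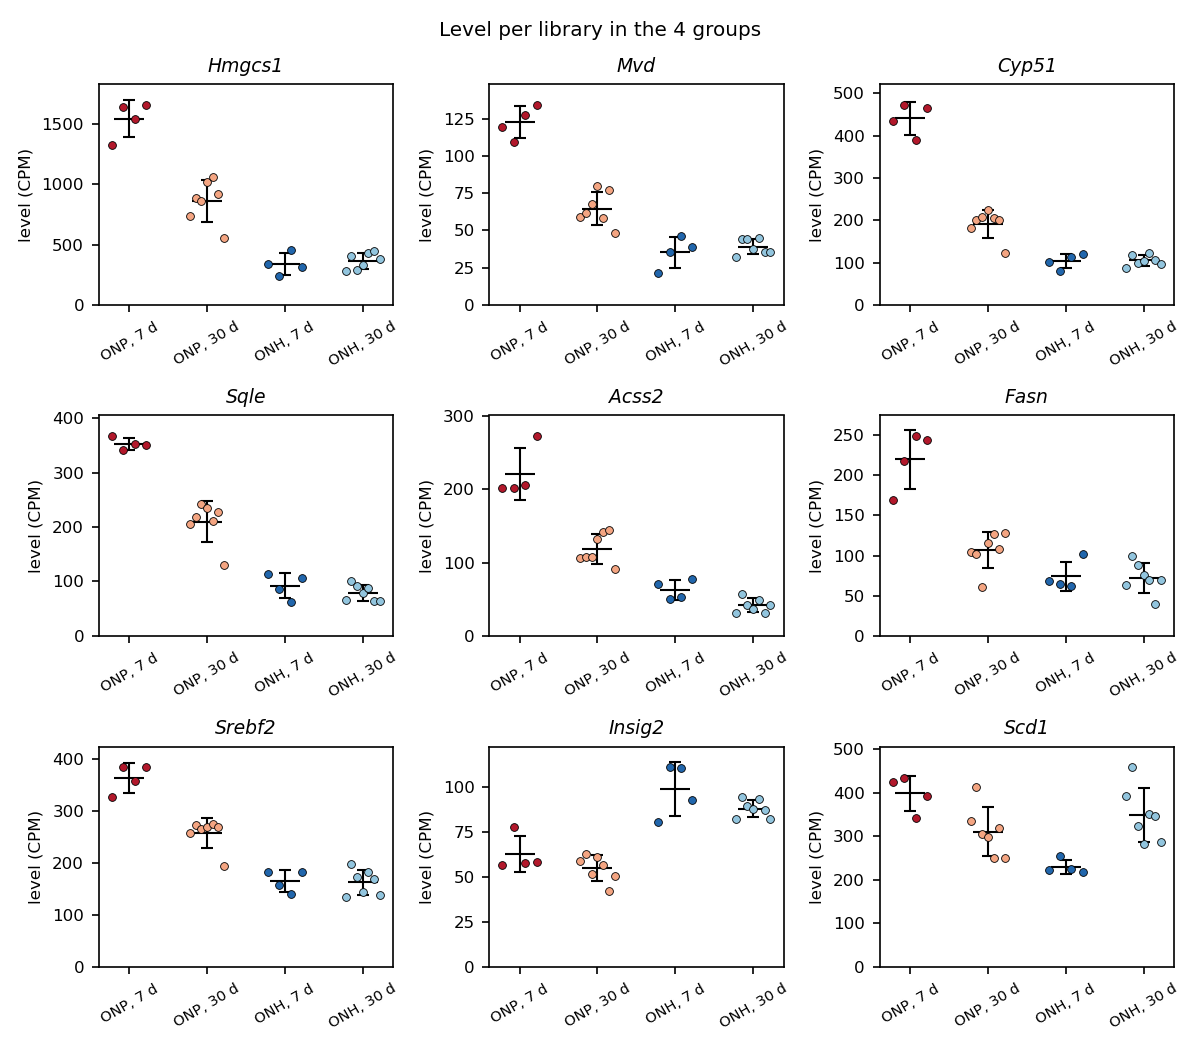
Level in CPM of 9 members in each library, with 1 point per library and the mean and SD of each group as a bar; every vertical axis starts at 0. In Hmgcs1, Mvd, Cyp51, Sqle, Acss2, Fasn and Srebf2 the ONP at 7 days is separate from the ONP at 30 days; Insig2 is higher in the ONH at both days, and Scd1 in the ONH is higher at 30 than at 7 days.

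Fdft1, squalene synthase, and Sqle, the squalene epoxidase, a control point of the pathway, were both lower over time in the ONP. Fdft1 measured 509, 478, 467 and 491 CPM in the ONP at 7 days, 199.9 to 386 CPM (median 359) in the ONP at 30 days, 142, 118, 173 and 170.4 CPM in the ONH at 7 days and 109 to 184 CPM (median 144) in the ONH at 30 days. Sqle measured 368, 341, 352 and 351 CPM, 129.9 to 242 CPM (median 219), 114, 85.5, 63.0 and 106 CPM, and 63.5 to 100.5 CPM (median 79.3) in the same order of groups. Neither gene overlapped between the regions at either day, nor between the times in the ONP. Replicate 7 of the ONP at 30 days was the lowest of its group in both. The log2FC over time in the ONP was -0.56 ± 0.15 for Fdft1 (adjusted p = 0.026), a call lost without ONP library 1, 2 or 6 of 7 days, and -0.78 ± 0.14 for Sqle (adjusted p = 0.00414). Between ONH and ONP at 30 days it was -1.22 ± 0.14 and -1.41 ± 0.15.

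Lss, which closes the sterol rings to lanosterol, measured 164, 168, 140.0 and 194 CPM in the ONP at 7 days and 67.7 to 111 CPM (median 81.4) at 30 days. The ONH held 42.0, 41.4, 54.6 and 52.0 CPM at 7 days and 29.6 to 63.5 CPM at 30 days. Its log2FC in the ONP over time was -0.98 ± 0.15, and it was -1.79 and -0.93 between the regions at 7 and 30 days. Msmo1, the methyl sterol oxidase that acts after Cyp51, measured 421, 491, 439.7 and 410.4 CPM in the ONP at 7 days and 159 to 334 CPM (median 275) at 30 days. ONH levels were 126, 84.3, 113 and 108 CPM at 7 days and 111 to 148 CPM (median 119.8) at 30 days. None of these groups overlapped other than the ONH groups with each other, and the log2FC was -0.73 ± 0.16 over time in the ONP and -2.01 and -1.15 between the regions.

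Dhcr7, the last reductase of one of the routes to cholesterol, had the largest regional difference at 30 days. It measured 79.8, 88.9, 102 and 109 CPM in the ONP at 7 days and 33.6 to 63.6 CPM (median 42.8) at 30 days. The ONH libraries held 30.3, 17.8, 12.3 and 30.1 CPM at 7 days and 7.02 to 19.9 CPM (median 14.4) at 30 days. It was lower over time in the ONP (log2FC = -1.04 ± 0.17, adjusted p = 0.0023) and lower in the ONH than in the ONP at 30 days (-1.75 ± 0.23, adjusted p = 3.45e-05). Over time in the ONH its value was -0.72 ± 0.32 and did not pass (adjusted p = 0.35). Nsdhl, a decarboxylating sterol dehydrogenase that acts with Msmo1, measured 33.6, 39.0, 45.8 and 47.8 CPM in the ONP at 7 days, 25.2 to 36.4 CPM (median 34.0) in the ONP at 30 days, 16.1, 12.4, 6.28 and 18.3 CPM in the ONH at 7 days and 6.11 to 14.8 CPM (median 11.5) in the ONH at 30 days. The regions did not overlap at either day, with log2FC of -1.63 and -1.49, and the change over time in the ONP was -0.38 ± 0.13 (adjusted p = 0.0564).

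Of the remaining sterol genes, Lbr (-0.88), Hsd17b7 (-0.73), Sc5d (-0.58) and Ebp (-0.39) were lower over time in the ONP, and the calls on Sc5d and Ebp were lost without ONP library 2 or 6 of 7 days. Lbr, a sterol reductase of the inner nuclear membrane, was lower in the ONH at 7 days only at the margin of the threshold (adjusted p = 0.0499, lost when any of 7 libraries was left out), and library 6 of the ONH held 27.2 CPM where the other three held 5.92 to 10.9 CPM. Sc5d, the lathosterol desaturase, was lower in the ONH by -1.80 and -1.37 at 7 and 30 days, and Hsd17b7, the 3-keto sterol reductase, by -1.05 and -0.63. Ebp, the sterol isomerase, had a log2FC of -0.17 between the regions at 30 days (adjusted p = 0.162) and -0.58 at 7 days (adjusted p = 0.0563). Tm7sf2 encodes a reductase that shares its reaction with Lbr, and yet its change over time in the ONP was -0.03 ± 0.07, with 68.4, 68.0, 66.2 and 71.6 CPM at 7 days and 63.3 to 74.9 CPM at 30 days. It was lower in the ONH at 30 days (-0.46, adjusted p = 0.00122).

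Among the regulators, 2 of 6 were lower over time in the ONP. Srebf2 encodes SREBP2, the factor for sterol genes, and it measured 327, 385, 358 and 386 CPM at 7 days and 195 to 275 CPM (median 270.0) at 30 days (log2FC = -0.52 ± 0.10, adjusted p = 0.00676). Scap, the escort of the SREBPs, measured 129, 146, 148 and 156 CPM at 7 days and 85.5 to 114 CPM (median 99.0) at 30 days (-0.59 ± 0.09, adjusted p = 0.00222). Neither gene overlapped between the times. In the ONH, Scap held 103, 89.5, 52.4 and 105 CPM at 7 days and 55.4 to 100.3 CPM (median 65.7) at 30 days. Srebf2 was lower in the ONH at both days (-1.11 and -0.67), and Scap was lower at 30 days (-0.43, adjusted p = 0.0191) while its value at 7 days was -0.71 (adjusted p = 0.0574). Srebf1, which encodes the SREBP1 forms that act mainly on fatty acid genes, showed no such order. It ranged from 181 to 300.2 CPM over all 22 libraries, its group means were 232, 218, 220.5 and 246 CPM (ONP at 7 and 30 days, ONH at 7 and 30 days), and it passed in none of the comparisons.

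The INSIG genes ran in opposite directions between the regions. Insig1, itself a target of SREBP, measured 130.2, 177, 201 and 163 CPM in the ONP at 7 days and 31.5, 46.0, 55.7 and 49.8 CPM in the ONH (log2FC = -1.86 ± 0.21, adjusted p = 0.000439). At 30 days it ranged from 72.8 to 160.1 CPM in the ONP and from 45.4 to 71.1 CPM in the ONH (-1.04 ± 0.16, adjusted p = 0.000125). Insig2, which is transcribed largely without SREBP, was 56.7, 78.0, 58.0 and 58.7 CPM in the ONP at 7 days and 80.6, 112, 111 and 93.0 CPM in the ONH. Every ONH library was thus above every ONP library. That pattern was found in 9.9% of all genes at 7 days and in 9.26% at 30 days. Insig2 showed it at 30 days too, with 42.5 to 63.0 CPM (median 56.7) in the ONP and 82.3 to 94.5 CPM (median 88.2) in the ONH. The log2FC of Insig2 was 0.67 ± 0.18 at 7 days (adjusted p = 0.0335, lost when any of 5 libraries was left out) and 0.68 ± 0.09 at 30 days (adjusted p = 4.87e-05), and it was 0.70 with the oligodendrocyte covariate at 30 days. Over time in the ONP Insig1 gave -0.54 ± 0.19 (adjusted p = 0.0719) and Insig2 gave -0.22 ± 0.13 (adjusted p = 0.251). Stard4, a soluble carrier that moves cholesterol between membranes, passed in none of the comparisons, with -0.43 over time in the ONP, 0.52 over time in the ONH, -1.14 between the regions at 7 days (adjusted p = 0.0507) and -0.22 at 30 days.

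All 4 genes of fatty acid synthesis were lower over time in the ONP, with a median of -0.86 and no overlap between the times. Acly splits citrate into cytosolic acetyl-CoA. It measured 211, 217, 261 and 273 CPM in the ONP at 7 days and 129 to 167 CPM (median 138) at 30 days (log2FC = -0.76 ± 0.11, adjusted p = 0.00113). ONH levels were 124, 43.9, 41.8 and 113 CPM at 7 days and 44.7 to 96.4 CPM (median 58.0) at 30 days, and it was lower than in the ONP by -1.56 ± 0.35 and -1.19 ± 0.15. Libraries 1 and 6 of the ONH at 7 days held more than the highest ONH library of 30 days.

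Acss2, which makes acetyl-CoA from acetate, measured 202, 202, 206 and 273 CPM in the ONP at 7 days and 90.7 to 144 CPM (median 108) at 30 days. The ONH held 71.0, 49.9, 52.9 and 76.9 CPM at 7 days and 31.2 to 57.7 CPM (median 41.5) at 30 days. Its difference between ONH and ONP at 30 days had the smallest p of the 36 (log2FC = -1.51 ± 0.16, adjusted p = 3.8e-06), and its change over time in the ONP was -0.92 ± 0.14 (adjusted p = 0.00187). Over time in the ONH its value was -0.62 ± 0.20, among the 3 smallest p of the members, and it did not pass (adjusted p = 0.233).

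Fasn, the multifunctional fatty acid synthase, measured 169, 217, 249 and 243 CPM in the ONP at 7 days and 61.4 to 128 CPM (median 108) at 30 days (log2FC = -1.07 ± 0.17, adjusted p = 0.0023). The ONH libraries held 68.4, 64.3, 61.8 and 101 CPM at 7 days and 39.7 to 99.2 CPM (median 70.1) at 30 days. The regions were separate at 7 days (-1.55 ± 0.21) and overlapped at 30 days, where the difference was -0.56 ± 0.19 (adjusted p = 0.0261, lost without ONP replicate 7). Acaca, the cytosolic acetyl-CoA carboxylase, had 51.8 to 64.6 CPM in the ONP at 7 days and 25.2 to 39.6 CPM at 30 days (-0.80 ± 0.14, adjusted p = 0.00302). Its regional difference was -1.27 at 7 days (adjusted p = 0.0228, lost when any of 5 libraries was left out) and -0.30 at 30 days (adjusted p = 0.177).

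Desaturation and elongation, the steps that shape the finished chains, held genes of both signs. Over time in the ONP 2 of 6 were lower, Scd2 and Elovl6, while Fads1 and Fads2 had positive values. Scd2, a stearoyl-CoA desaturase prominent in brain and myelinating glia, measured 4043, 4650.0, 4559 and 4946 CPM in the ONP at 7 days and 2558 to 3967 CPM (median 3186) at 30 days. ONH levels were 1259, 1407, 1736 and 1459 CPM at 7 days and 1371 to 2162 CPM (median 1811) at 30 days. The tiers were those of the sterol enzymes, with a log2FC of -0.54 ± 0.13 over time in the ONP (adjusted p = 0.0192), -1.62 ± 0.15 between the regions at 7 days (adjusted p = 0.000224) and -0.85 ± 0.13 at 30 days (adjusted p = 0.000109). The call over time was lost without ONP library 2 or 6 of 7 days.

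Scd1 is a close relative of Scd2. In the ONP it measured 424, 434, 343 and 394 CPM at 7 days and 251 to 414 CPM (median 305) at 30 days, which overlap (log2FC = -0.39 ± 0.13, adjusted p = 0.0642). In the ONH it measured 222, 254, 226 and 218 CPM at 7 days and 282 to 460.3 CPM (median 346) at 30 days. All 7 ONH libraries of 30 days were above all 4 of 7 days, and 1.76% of all genes had that pattern. The value in the ONH was 0.57 ± 0.15, the smallest p of the members there, and it did not pass (adjusted p = 0.189), although it did by DESeq2 and with all 4 groups in a single fit. The difference in the change between the regions was -0.96 ± 0.20 (adjusted p = 0.0295). Scd1 was lower in the ONH at 7 days (-0.77 ± 0.14, adjusted p = 0.00573), and at 30 days the value was 0.16 ± 0.13 (adjusted p = 0.353). Scd1 and Scd2 are similar in sequence, so the assignment of reads between them depends on the quantification.

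Elovl6, which extends saturated chains, measured 96.2, 100.3, 110.2 and 127 CPM in the ONP at 7 days and 41.8 to 85.4 CPM at 30 days (log2FC = -0.87 ± 0.16, adjusted p = 0.00533), and it was lower in the ONH at both days (-1.70 and -0.996). Elovl5, which extends polyunsaturated chains, was lower in the ONH at both days (-1.10 and -0.62), with -0.31 over time in the ONP (adjusted p = 0.0854). Fads1 and Fads2, the desaturases of polyunsaturated fatty acids, lie close together on chromosome 19. Fads1 measured 1054, 871, 948 and 777 CPM in the ONP at 7 days and 769.6 to 1921 CPM (median 1578) at 30 days. The lowest library of 30 days, replicate 5, was below all 4 of 7 days, and the log2FC was 0.58 ± 0.24 (adjusted p = 0.121). Fads2 measured 414, 342, 370.1 and 256 CPM at 7 days and 210.5 to 574 CPM (median 492) at 30 days, and replicate 5 was again the lowest (0.29 ± 0.26, adjusted p = 0.465). Both were lower in the ONH at 30 days (-1.21 and -1.37). At 7 days Fads1 was lower (-0.91, adjusted p = 0.0282), a call lost without any one of the 4 ONP libraries, and Fads2 had -0.95 (adjusted p = 0.0851).

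The list of other genes of these pathways held 44, all of them tested. Over time in the ONP 6 of 44 passed (13.6%, beside 17% of all genes), 4 lower and 2 higher, with a median of 0.03, and in the ONH 0 passed. The 4 that were lower were the citrate carrier Slc25a1 (-0.35), the elongase Elovl1 (-0.78), the elongation reductase Hsd17b12 (-0.33) and the acyl-CoA synthetase Acsl4 (-0.56). Those that were higher were Thrsp (2.26 ± 0.29, adjusted p = 0.000776), a small protein of lipogenic tissues that rose from 24.9 to 36.2 CPM at 7 days to 79.0 to 201 CPM at 30 days, and Elovl2 (2.56 ± 0.68, adjusted p = 0.0235), an elongase of long polyunsaturated chains at a low level, 0.13 to 1.89 CPM at 7 days and 2.22 to 8.23 CPM at 30 days. Thrsp thus ran against Fasn and Acaca. The 10 genes of isoprenoid use, the 8 of SREBP processing and turnover and the 8 of LXR, RXR and carbohydrate response factors held 0 calls over time in the ONP.

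Between ONH and ONP at 30 days, 19 of the 44 passed (43.2%, near the 41.8% of all genes), 17 lower and 2 higher, with a median of -0.24. In SREBP processing and turnover, 4 of 8 were lower, among them Erlin2 (-1.07), Rnf139 (-0.76) and Erlin1 (-0.70), which act in the sterol-regulated destruction of proteins of the endoplasmic reticulum. Among the nuclear factors Mlxip (-0.98), Rxrb (-0.34) and Nr1h2 (-0.29) were lower. Of isoprenoid use 3 of 10 were lower, among them Fntb (-1.36), a farnesyltransferase subunit, and Dhdds (-0.54), and Nus1 (0.38) was higher. In fatty acid supply and elongation 7 were lower, Elovl2 (-2.05), Elovl7 (-1.44), Thrsp (-1.34), Elovl1 (-0.96), Acacb (-0.95), Tecr (-0.56) and Hsd17b12 (-0.47), and Mecr (0.37) was higher. At 7 days 7 of 44 passed (15.9%, near the 13.2% of all genes), all of them lower: Elovl7 (-2.21), Fntb (-1.42), Elovl1 (-1.28), Erlin2 (-1.09), Hsd17b12 (-0.76), Tecr (-0.76) and Slc25a1 (-0.60). The median of the 44 was -0.01 at 7 days, beside -1.53 for the 36 members. In the test of the regional difference in the change, 0 of 44 passed.

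Libraries differed within groups too. Replicate 7 of the ONP at 30 days, with the high microglial markers, was the lowest of its 7 libraries in 21 of the 36 members and its sterol enzyme sum was 2178.1 CPM where the other six held 3015.6 to 3694.5 CPM. Replicate 5 of the same group held 2231.7 CPM of microglial markers and was the highest in 11 members, and replicate 7 of the ONH at 30 days (2785 CPM) was the lowest of its group in 2. Without both libraries numbered 7, 24 members were lower over time in the ONP, all of them among the original 24, and 27 of the 28 calls between the regions at 30 days were kept. Library 1 was the lowest of the 4 ONP libraries of 7 days in 18 members and library 6 the highest in 16. Without library 6 of the ONP at 7 days, 19 members were lower over time, with Mvk, Fdft1, Ebp, Sc5d and Scd2 no longer passing. A total of 10 members lie across another coding gene in GENCODE M21, among them Cyp51 with Akap9, Fdft1 with Ctsb and Ggps1 with Arid4b, and the share of counts from the neighbor was not tested.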

How the data were processed

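HA-tagged ribosomes were isolated with an anti-HA antibody from the ONH and ONP, and poly(A) RNA was made into cDNA libraries with an ultra-low input kit that is not stated to mark strand. The submitters' processing notes name STAR 2.6.1d, Salmon 0.14.2, R 4.1.0 and DESeq2 1.34.0 and the build mm10. The authors deposited Salmon expected counts summed to genes, as whole numbers without normalization, and these were used here. A second deposited table of variance stabilized log2 values was not used.

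Tests used edgeR 4.0.16 in R 4.3.3 (filterByExpr by group, TMM, quasi-likelihood F test, Benjamini-Hochberg adjustment over all genes tested, threshold 0.05, no fold limit), each pair of groups on its own libraries and the regional difference in the change over all 22. The standard error (SE) of a log2FC was derived as its absolute value divided by the square root of the F statistic, and is approximate. DESeq2 1.42.0 and limma 3.58.1 were alternatives. RPKM used exonic lengths from GENCODE M21 (GRCm38).

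Columns of the 7 day libraries carry the numbers 1, 3, 5 and 6 (ONH) and 1, 2, 5 and 6 (ONP), which could not be matched to the labels' replicate numbers, so these libraries carry their column numbers. No pair of libraries of a group agreed within counting noise (smallest mean chi-square 21.21 over 54 pairs, where 1 is counting noise alone). Per the methods both regions were dissected from the same animals, but this is not tied to library numbers, so a fit with the 30 day number as a block is an alternative only. Libraries of a group are separate pools, and p-values measure the spread between pools. ONH and ONP libraries of a day can hold the same animals. The main tests between the regions and of the regional difference in the change treated them as independent. The deepest library held 33307092 and the shallowest 16292489 counts. Counting limits do not cover duplicate molecules made by PCR.

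The members, the lists of other pathway genes and markers and the promoter choices were made with earlier results of these data known. All 36 members are named. Values by library are given, for each comparison, for up to 8 members with the smallest p among those that passed and did not overlap between groups, and for the 3 smallest p where fewer than 3 passed, and members that differ in direction from their role group are named. Promoter sequences are from RefSeq. A few genes that enter the counts and marker sums are not reported here by name.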

Additional observations from a re-analysis of the deposited data

Results flagged for a closer look

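In single groups, 16 of 144 tests of a member's highest and lowest library (11.1%) found a library farther from the others than Dixon's limit. For a single test chance gives about 1 in 20. The tests share the same libraries and are not independent, so the share of 11.1% cannot be weighed against that rate. In the ONP at 30 days replicate 7 was the low library for Idi1 (119 CPM, next 209), Fdft1 (200 CPM, next 322), Sqle (130 CPM, next 205), Cyp51 (123 CPM, next 181) and Srebf2 (195 CPM, next 258). This library held 2635.4 CPM of microglial markers, and replicate 5, with 2231.7 CPM of them, was the lowest of its group in 7 members and the highest in 11. Replicate 3 was low for Fasn in the same group (61.4 CPM, next 102). In the ONP at 7 days library 6 was high for Acss2 (273 CPM, next 206) and Acaca (64.6 CPM, next 53.4), and library 2 was high for Insig2 (78 CPM, next 58.7).

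In the ONH at 30 days replicate 6 was high for Mvk (77.7 CPM, next 49.3) and Pmvk (170 CPM, next 101) and low for Tm7sf2 (37.7 CPM, next 48.3). Replicate 5 was low for Ggps1 (36.7 CPM, next 49.3) and replicate 2 was high for Msmo1 (148 CPM, next 122). In the ONH at 7 days library 6, which held the most photoreceptor marker counts, was high for Fasn (101 CPM, next 68.4) and Elovl5 (210 CPM, next 178).

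A difference between ONP and ONH in the 30 vs 7 day log2FC passed the direct test for Cyp51 (-1.23), Mvd (-1.07) and Scd1 (-0.962). In Cyp51 and Mvd the ONP fell and the value in the ONH was near 0, whereas the Scd1 values had opposite signs in the regions and neither passed on its own.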

How the results depend on the processing

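Directions of the members were kept under every change of tool, scaling, filter and samples among those that passed. The exceptions came with the oligodendrocyte covariate, chosen after seeing the data, which at 7 days turned Mvk (1.45), Idi1 (0.0905), Fdps (0.73), Lbr (1.25) and Acaca (1.23) to higher in the ONH, with no call, and the cause was not tested. With it, 2 members and 432 genes passed over time in the ONP, 1 gene passed in the ONH, 3248 genes passed between the regions at 30 days (median of members -0.68), and 1 member and 65 genes at 7 days (median -0.95). In the ONH over time DESeq2 called 1 member and 446 genes, all 4 groups in a single fit 1 and 292, and no filter beyond 1 count 2 genes. The single fit also called 19 members and 1189 genes over time in the ONP, the 19 being among the 24, and 33 members and 3785 genes between the regions at 7 days, where DESeq2 called 3210. In the difference of the changes, 7 members and 409 genes passed by DESeq2, 55 genes by limma-voom with quality weights, 1 member and 50 genes with no filter, 1 member with library size only (median -0.33), and 58 genes without both 30 day libraries numbered 7, an alternative added after seeing the data. Scaling by library size alone moved the median of all genes to 0.106 over time in the ONP, to 0.181 between the regions at 7 days and to 0.163 in the difference of the changes.

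The replicate block, with the 30 day number as the pair, left 28 members between the regions at 30 days. In the difference of the changes (limma-voom) it gave 7 members and 161 genes. A block was not run for the other comparisons, because the columns of 7 days do not carry the labels' numbers. At 30 days the correlations of same-numbered libraries, as deviations from the group means, were 0.0767 to 0.471, and 3 of the 7 correlated best with their own number, a hint from the data.

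Leaving out 1 library gave 19 to 27 members, 1439 to 3214 genes and a median of -0.67 to -0.53 over time in the ONP. It gave 0 to 0 members, 0 to 167 genes (without library 5 of 7 days) and -0.10 to 0.04 in the ONH. Between the regions it gave 27 to 29 members, 5671 to 6416 genes and -0.89 to -0.79 at 30 days, and 23 to 30 members, 1102 to 2379 genes and -1.62 to -1.37 at 7 days. The 7 day gene count was 1147, 1173 and 1102 without ONP library 2, 5 or 6, and library 6 also gave the 1439 over time. The difference of the changes ran from 1 to 10 members, 22 to 318 genes and -0.58 to -0.40. It held 1 member without 30 day replicate 2 or 5 of the ONH or 1, 3 or 6 of the ONP, or without 7 day library 1 of the ONH or 1, 2 or 6 of the ONP. It held 5 without 30 day replicate 5 of the ONP and 10 without 7 day library 5 of the ONH.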
